A study of Mus musculus with 16 samples.

Results

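The mouse proteasome genes were taken as every protein-coding row whose symbol runs from Psma to Psmg followed by a digit, which gave 51 of the 46320 genes in the table. The 26S proteasome is a barrel-shaped protease, the 20S core, capped by the 19S particle. In the core, rings of alpha subunits gate rings of beta subunits, of which Psmb5, Psmb6 and Psmb7 cut peptides; in the 19S particle a base with ATPases unfolds the substrate and a lid removes its ubiquitin. In neurons the proteasome turns over proteins in cell bodies, dendrites and axons, and its subunits are known to vary between tissues through inducible or tissue-specific replacements. By role, the 51 genes comprised 7 core alpha and 7 core beta subunits, 5 alternative core subunits, 6 ATPases and 3 other subunits of the base, 8 lid subunits, 5 activators, 1 inhibitor, 7 assembly chaperones, and 2 genes (Psmc3ip and Psme3ip1) that match the symbol pattern but encode no subunit. RNA came from motoneurons of lumbar spinal cord of embryonic day 13 mice, enriched by panning with an antibody to p75NTR and grown in microfluidic chambers that separate axons from somata and dendrites. The 4 groups were the somatodendritic and the axonal compartment of +/+ (WT) motoneurons and of Hnrnpr-/- (KO) motoneurons, which lack Hnrnpr exons 1 to 5 after CRISPR/Cas9 deletion, with 4 libraries in each group. All chambers received CNTF on both sides and BDNF on the axonal side only, and the axonal libraries were amplified over more PCR cycles, so compartment and amplification cannot be told apart.

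Library totals ran from 22 to 34.9 in units of 1000000 counts. Hnrnpr was at 178 to 241 counts per 1000000 (CPM) in somata and 120.0 to 422 CPM in axons of +/+ chambers, against 0.545 to 1.16 and 0.613 to 1.1 CPM in the Hnrnpr-/- libraries, so every library matched its genotype label. Axonal libraries of a group resembled each other less (median Spearman correlation with the rest of the group 0.92 to 0.95) than somatodendritic ones (0.98 to 0.99), and +/+ axonal replicate 2 had the lowest value. The 7 listed endothelial or pericyte markers summed to 1028 to 9885 CPM in +/+ axonal and 1847 to 8882 CPM in Hnrnpr-/- axonal libraries, against 28.4 to 389.8 and 45.4 to 246 CPM in the somatodendritic ones, and Acta2 gave the largest part. Of the 11 motoneuron markers, Stmn2 averaged 1412 CPM in somata and 383 CPM in axons of +/+ chambers, the vesicular acetylcholine transporter Slc18a3 8.05 and 0.543 CPM, and Chat 0.899 and 0.0162 CPM, while Mnx1 was at 0 in every group but Hnrnpr-/- axons. In such bulk samples, fewer cells of a type and less RNA per cell cannot be told apart.

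In both genotypes, proteasome transcripts took a larger share of the axonal than of the somatodendritic RNA, and the core subunits did so together. Of the 51 genes, 49 passed the filter on low counts; Psmb11, the thymus-specific beta5 variant, and Psma8, the testis-specific alpha4 variant, were left out with at most 0.124 and 0.367 CPM in any library. By edgeR's quasi-likelihood test, with p-values adjusted over all 19964 genes tested, 39 of the 49 rose in axons and 0 fell in +/+ motoneurons. Among all genes tested, 30.1% were called higher and 27.4% lower. In Hnrnpr-/- motoneurons, whose libraries are not shared with the +/+ comparison, 40 rose and 0 fell, against 27.5% and 26.8% of all genes. The median log2 fold change of the 49 genes was 0.66 in +/+ and 0.84 in Hnrnpr-/-, and that of all genes tested 0.0719 and -0.00282. By the libraries themselves, 36 genes in +/+ and 39 in Hnrnpr-/- had every axonal library above every somatodendritic one, a pattern that 24.8% and 24.1% of all genes showed. Called in both genotypes were 38 genes; Psmc6 passed the test in +/+ only, Psmd5 and Psmd9 in Hnrnpr-/- only, and 8 genes in neither. Some of these calls lay near the threshold: Psmd5 and Psmd9 passed in +/+ too, and Psme3ip1, one of the 8, in Hnrnpr-/-, with library totals, a stricter count filter or protein-coding genes only. For none of the 49 was the difference between the genotypes past the threshold.

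**Figure D1:**
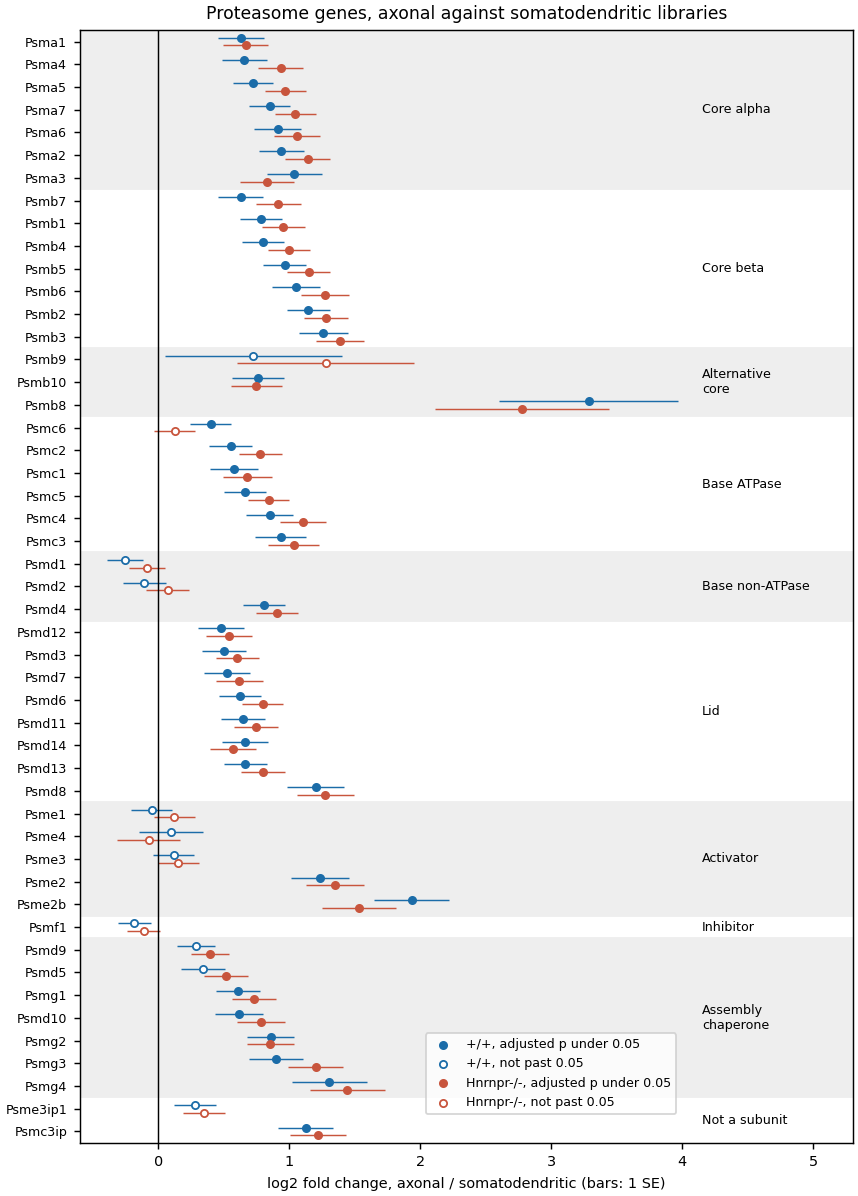
Log2 fold change of axonal over somatodendritic libraries (x axis) for the 49 tested genes (y axis) grouped by role, in +/+ (blue) and Hnrnpr-/- motoneurons (red). Bars are 1 SE and filled points passed an adjusted p of 0.05; all 14 constitutive core subunits lie to the right of 0 in both genotypes, while Psmd1, Psmd2, Psme1, Psme3, Psme4 and Psmf1 lie near 0.

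All 7 alpha subunits, which form the outer rings and the gate of the core, rose in axons of both genotypes, by log2 fold changes of 0.63 to 1.04 in +/+ and 0.67 to 1.14 in Hnrnpr-/-. The smallest rise in +/+ was that of Psma1, at 148, 159, 171 and 205 CPM in the somatodendritic replicates 1 to 4 and 234, 328, 297 and 197 CPM in the axonal ones. Its Hnrnpr-/- libraries held 146, 182, 164 and 148 CPM in somata and 236, 224, 301 and 254 CPM in axons. The +/+ groups overlapped for Psma1, since axonal replicate 4 lay below somatodendritic replicate 4, and the Hnrnpr-/- groups did not; the log2 fold changes were 0.63 ± 0.17 (SE, edgeR adjusted p = 0.0062) and 0.67 ± 0.17 (SE, edgeR adjusted p = 0.00487). Psma3 (chr12:71016057-71042651, GRCm39) rose most in +/+. It was at 164, 177, 190.4 and 207 CPM in +/+ somata and 282, 586, 365 and 282 CPM in +/+ axons, and at 156, 188, 183 and 168 CPM in somata and 306, 254, 352 and 324 CPM in axons of Hnrnpr-/-. Axonal replicate 2 of +/+, the library that stood apart, gave the single highest Psma3 value. No groups overlapped, and the log2 fold change was 1.04 ± 0.21 (SE, edgeR adjusted p = 0.000859) in +/+. In Hnrnpr-/- it was 0.83 ± 0.21 (SE, edgeR adjusted p = 0.00401). Without axonal replicate 2 the +/+ value was 0.74 (edgeR adjusted p = 0.00109), so the rank of Psma3 rested on that library. With 1 library left out, the lowest +/+ values were 0.84 for Psma2 and 0.79 for Psma6.

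All 7 constitutive beta subunits rose as well, by 0.63 to 1.26 in +/+ and 0.91 to 1.39 in Hnrnpr-/- on the log2 scale. Psmb3, a subunit without catalytic activity, had the largest rise of the group. Its values were 77.5, 66.6, 75.4 and 80.6 CPM in +/+ somata, 168, 153, 245 and 154 CPM in +/+ axons, 56.2, 76.5, 78.2 and 67 CPM in Hnrnpr-/- somata and 151, 151, 215 and 209 CPM in Hnrnpr-/- axons. Every axonal library exceeded every somatodendritic one, and the log2 fold changes were 1.26 ± 0.19 (SE, edgeR adjusted p = 0.000108) and 1.39 ± 0.19 (SE, edgeR adjusted p = 7.96e-05).

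The 3 catalytic subunits behaved alike in the direction of the difference. Psmb5 (chr14:54851577-54855452), which carries the chymotrypsin-like activity, was at 117, 99.7, 113 and 107 CPM in +/+ somata and 209.7, 206, 271 and 168 CPM in +/+ axons. In Hnrnpr-/- it was at 82.5, 113, 101 and 91.6 CPM in somata and 227, 170.0, 249 and 212 CPM in axons. The groups did not overlap, and the log2 fold changes were 0.97 ± 0.16 (SE, edgeR adjusted p = 0.000288) and 1.15 ± 0.17 (SE, edgeR adjusted p = 0.000118). For Psmb6 (chr11:70416116-70418684), with the caspase-like activity, the +/+ libraries held 185, 163, 166 and 167 CPM and 342, 303, 492 and 273 CPM, and the Hnrnpr-/- libraries 129.9, 169, 159.8 and 153 CPM and 334, 308, 445 and 389 CPM, somata first. Again all axonal libraries were higher, with log2 fold changes of 1.05 ± 0.18 (SE, edgeR adjusted p = 0.000297) and 1.27 ± 0.18 (SE, edgeR adjusted p = 0.00011). Psmb7 (chr2:38478058-38533964), with the trypsin-like activity, gave the smallest rise of the beta subunits in +/+. It was at 84.8, 87.9, 95.2 and 99.3 CPM in somata and 133, 133, 193 and 109 CPM in axons of +/+ and at 71.2, 93.3, 83.5 and 72.8 CPM in somata and 132, 145, 183 and 145 CPM in axons of Hnrnpr-/-. The groups were separate here too, by log2 fold changes of 0.63 ± 0.17 (SE, edgeR adjusted p = 0.00631) and 0.91 ± 0.17 (SE, edgeR adjusted p = 0.000654).

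The immunoproteasome subunits, which replace the catalytic subunits after interferon signalling and in immune cells, were far less abundant. Psmb8, the replacement of Psmb5 on chr17:34417169-34420428, was at 0.815, 0.54, 0.994 and 0.329 CPM in +/+ somata and 3.98, 7.33, 10.9 and 4.25 CPM in +/+ axons. In Hnrnpr-/- it was at 0.371, 0.433, 0.963 and 2.32 CPM in somata and 1.92, 4.1, 10.4 and 11.6 CPM in axons. The +/+ groups were separate; in Hnrnpr-/- axonal replicate 1 lay below somatodendritic replicate 4. Psmb8 had the largest log2 fold change of all 49 genes, at 3.28 ± 0.68 (SE, edgeR adjusted p = 0.00105) in +/+ and 2.78 ± 0.66 (SE, edgeR adjusted p = 0.00294) in Hnrnpr-/-. The Hnrnpr-/- value of Psmb8 was 2.42 without axonal replicate 4 and 3.55 without somatodendritic replicate 4, and passed in both cases. Psmb9, the replacement of Psmb6 on chr17:34400961-34406304, was at 0.362, 0.495, 0.828 and 1.55 CPM in somata and 1.26, 0.189, 1.46 and 2.42 CPM in axons of +/+ and 0.535, 1.04, 0.461 and 1.59 CPM in somata and 1.25, 1.65, 1.56 and 4.34 CPM in axons of Hnrnpr-/-. Its groups overlapped in both genotypes, and the log2 fold changes of 0.73 ± 0.67 (SE, edgeR adjusted p = 0.37) and 1.28 ± 0.67 (SE, edgeR adjusted p = 0.121) did not pass the test; with the replicate number as a block, the Hnrnpr-/- value was 1.26 (edgeR adjusted p = 0.0439) and passed, as it did with limma voom, at 1.45 (limma adjusted p = 0.0359). With 1 library left out, the Psmb9 value ran from 0.32 (without axonal replicate 4) to 1.29 (without somatodendritic replicate 4) in +/+, and from 0.71 to 1.68 in Hnrnpr-/- without the same numbers. Replicate 4 also held the most microglial marker RNA of the Hnrnpr-/- libraries, at 344 CPM in axons and 116 CPM in somata, and was the highest in its group for Psmb8 and Psmb9 in both compartments. In Hnrnpr-/- axonal replicate 3 and +/+ axonal replicate 3, where Psmb8 was likewise above 10 CPM, the microglial markers were at 20.3 and 14.1 CPM. Their part in these values was not tested. Psmb10, the replacement of Psmb7, was the most abundant of the trio. It was at 14.6, 14.7, 13.9 and 17.5 CPM in somata and 21.1, 28.5, 30.1 and 23.1 CPM in axons of +/+ and 11, 17.6, 12.6 and 18.6 CPM in somata and 28.8, 20.9, 22.6 and 28.2 CPM in axons of Hnrnpr-/-, with no overlap and log2 fold changes of 0.76 ± 0.20 (SE, edgeR adjusted p = 0.00424) and 0.75 ± 0.20 (SE, edgeR adjusted p = 0.00524).

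**Figure D2:**
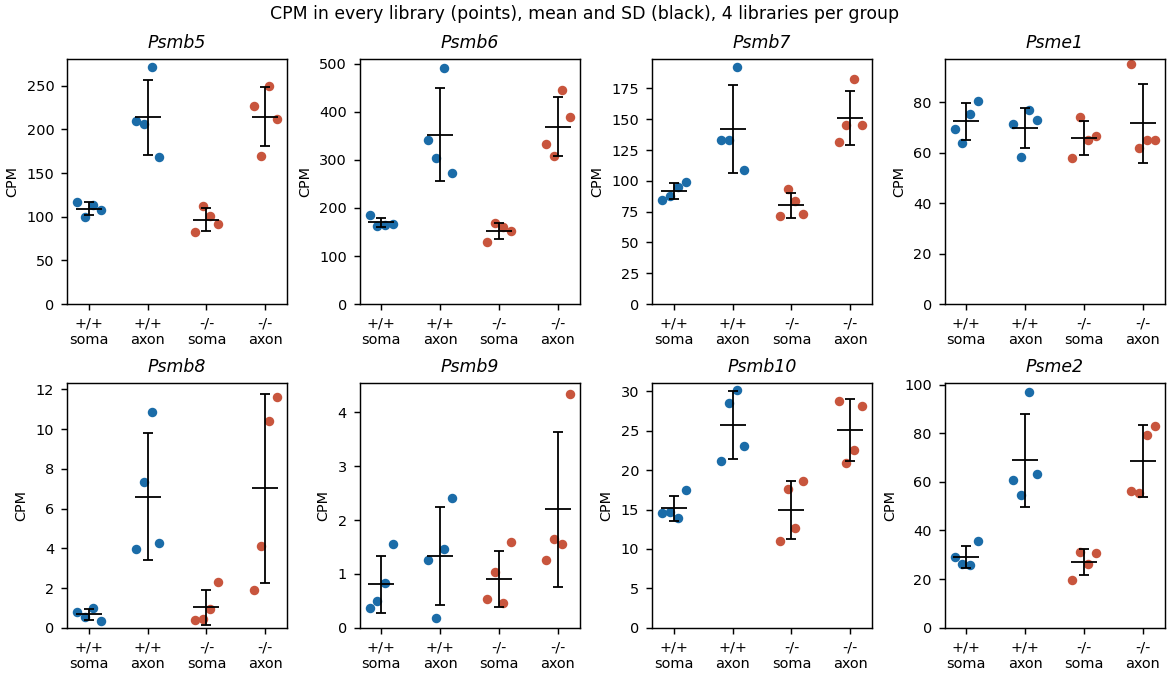
CPM (y axes, linear, from 0) of the 3 catalytic subunits, their immunoproteasome replacements and the PA28 subunits Psme1 and Psme2 in every library (points), with mean and SD of 4 libraries (black). Psmb5, Psmb6, Psmb7, Psmb10 and Psme2 are higher in every axonal than in every somatodendritic library of the same genotype; Psme1 overlaps throughout.

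Relative to the catalytic partner within the same library, and per exon length, Psmb8 amounted to 0.218% to 0.624% of Psmb5 in +/+ somata and 1.35% to 2.85% in +/+ axons. The Hnrnpr-/- libraries gave 0.273% to 1.8% in somata and 0.601% to 3.9% in axons, so that the +/+ ranges were separate and the Hnrnpr-/- ranges were not. Psmb10 stood at 12.2% to 14.7% of Psmb7 in +/+ somata and 13% to 17.8% in +/+ axons, ranges that overlapped, and Psmb9 reached at most 1.13% of Psmb6 in any of the 16 libraries. Of 13 listed genes of interferon signalling and antigen presentation, 12 were tested. In axons of each genotype 7 rose, 0 fell and 5 did not pass, where 30.1% and 27.5% of all genes were called higher in +/+ and Hnrnpr-/-. Among those that rose were B2m (3.06 and 2.72), which forms the light chain of MHC class I, and Irf1 (2.76 and 2.81), an interferon-induced transcription factor. The summed level of the 13 was 265 to 354 CPM in +/+ somata and 429 to 839 CPM in +/+ axons, and 332 to 465 and 513 to 809 CPM in Hnrnpr-/-. Their part in the Psmb8 result was not tested.

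In the base of the 19S particle, all 6 ATPases rose in +/+ axons and 5 of 6 in Hnrnpr-/- axons. Psmc3 rose most in +/+, from 185, 183, 196 and 185 CPM in somata to 342, 302, 489.7 and 296 CPM in axons. The Hnrnpr-/- libraries held 163, 209, 201 and 174 CPM in somata and 290.0, 348, 527 and 363 CPM in axons. Neither genotype showed an overlap, and the log2 fold changes were 0.93 ± 0.19 (SE, edgeR adjusted p = 0.0011) and 1.03 ± 0.20 (SE, edgeR adjusted p = 0.000654). Psmc6 gave the smallest difference of the ATPases. Its levels were 96.9, 113, 136 and 123 CPM in somata and 131, 194, 139.8 and 154 CPM in axons of +/+ and 109.7, 138, 128 and 111 CPM in somata and 127, 117, 154 and 133 CPM in axons of Hnrnpr-/-. The groups overlapped in both genotypes, and the log2 fold change was 0.40 ± 0.16 (SE, edgeR adjusted p = 0.0398) in +/+ and 0.12 ± 0.16 (SE, edgeR adjusted p = 0.519) in Hnrnpr-/-. With the replicate number as a block, the +/+ value was 0.39 (edgeR adjusted p = 0.0627) and no longer passed, and without +/+ axonal replicate 2, which gave the highest value, it was 0.27 (edgeR adjusted p = 0.135).

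The large scaffold subunits of the base did not share the rise. Psmd1 (Rpn2, chr1:85992341-86067017) was at 358, 425, 422 and 403 CPM in +/+ somata and 346, 331, 349.8 and 319.9 CPM in +/+ axons, and at 425, 404, 395 and 358 CPM in somata and 342, 383, 463 and 300.3 CPM in axons of Hnrnpr-/-. All +/+ axonal values lay below all +/+ somatodendritic ones, the Hnrnpr-/- values overlapped, and neither log2 fold change passed the test, at -0.26 ± 0.14 (SE, 95% interval -0.55 to 0.0344, edgeR adjusted p = 0.12) and -0.0889 ± 0.14 (SE, 95% interval -0.38 to 0.20, edgeR adjusted p = 0.602). Psmd2 (Rpn1, chr16:20469872-20482164), named here after its values were seen, was at 615, 633, 677 and 648 CPM in somata and 679.7, 397, 672 and 639 CPM in axons of +/+ and at 659, 675, 616 and 626 CPM in somata and 648, 684, 811 and 566 CPM in axons of Hnrnpr-/-. The groups overlapped, with log2 fold changes of -0.11 ± 0.16 (SE, 95% interval -0.46 to 0.24, edgeR adjusted p = 0.591) and 0.0721 ± 0.16 (SE, 95% interval -0.28 to 0.42, edgeR adjusted p = 0.729). The +/+ value of Psmd2 turned to 0.0401 without axonal replicate 2, its lowest library, and to 0.0416 with library totals. The remaining base subunit, the ubiquitin receptor Psmd4 (Rpn10), rose in contrast. It went from 132, 134, 144 and 130.3 CPM in somata to 235, 202, 307 and 203 CPM in axons of +/+ and from 115, 150.4, 136 and 132 CPM in somata to 229, 226, 312 and 232 CPM in axons of Hnrnpr-/-, without overlap, by 0.81 ± 0.16 (SE, edgeR adjusted p = 0.000763) and 0.91 ± 0.16 (SE, edgeR adjusted p = 0.000419).

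All 8 lid subunits rose in both genotypes, by 0.48 to 1.20 in +/+ and 0.54 to 1.27 in Hnrnpr-/- on the log2 scale, among them Psmd14, the deubiquitinase of the lid, named for its role after the values were seen. The extremes in +/+ were Psmd8 (Rpn12) and Psmd12 (Rpn5). Psmd8 was at 146, 149, 165 and 164 CPM in +/+ somata, 328, 224, 454 and 426 CPM in +/+ axons, 124, 177, 155 and 140.1 CPM in Hnrnpr-/- somata and 368, 252, 379 and 445 CPM in Hnrnpr-/- axons. The groups were separate, with log2 fold changes of 1.20 ± 0.22 (SE, edgeR adjusted p = 0.000412) and 1.27 ± 0.22 (SE, edgeR adjusted p = 0.00033). Psmd12 was at 104, 147, 160.3 and 124 CPM in somata and 175, 168, 231 and 174 CPM in axons of +/+, and at 129.7, 156, 147 and 121 CPM in somata and 191, 171, 262 and 182 CPM in axons of Hnrnpr-/-. Here the lowest axonal library lay just above the highest somatodendritic one, and the log2 fold changes were 0.48 ± 0.18 (SE, edgeR adjusted p = 0.0305) and 0.54 ± 0.18 (SE, edgeR adjusted p = 0.0182); the +/+ call was lost when +/+ axonal replicate 3 or somatodendritic replicate 1 or 4 was left out, for the first of these at 0.41 (edgeR adjusted p = 0.0693). With limma voom Psmd12 passed in neither genotype. Its Hnrnpr-/- call was lost without somatodendritic replicate 4 (edgeR adjusted p = 0.0575). For Psmd7 the +/+ call was lost without axonal replicate 3 (edgeR adjusted p = 0.0515).

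**Figure D3:**
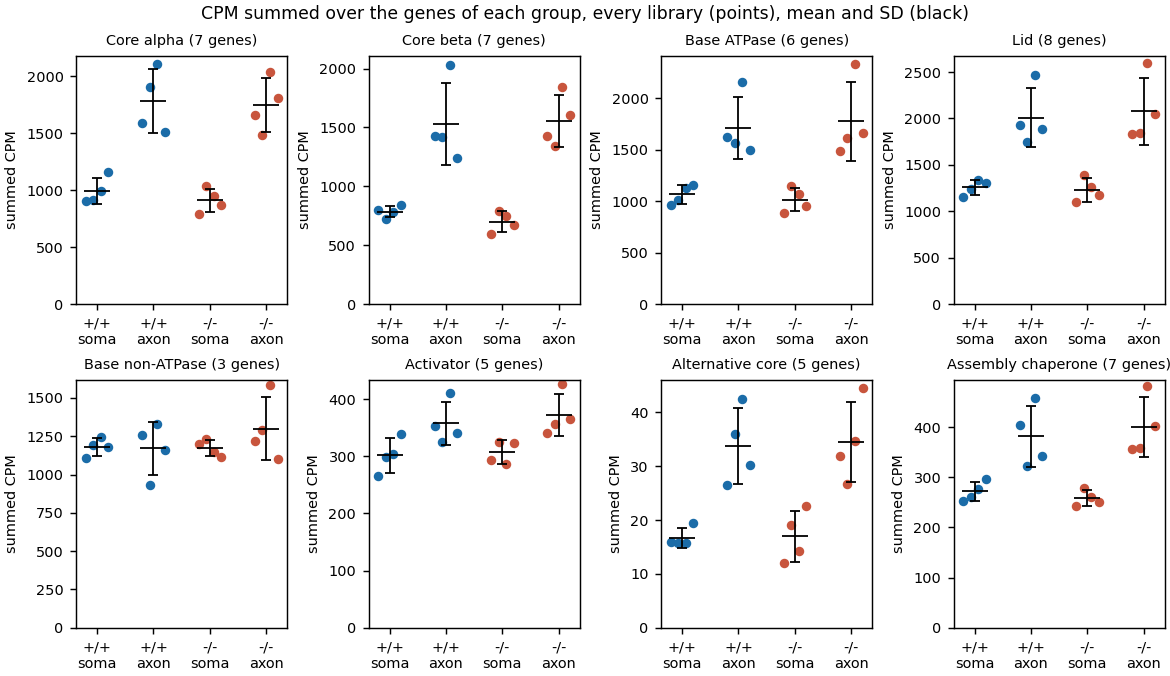
CPM summed over the genes of 8 role groups (y axes, linear, from 0) in every library (points), with mean and SD of 4 libraries (black). The core, ATPase and lid sums of every axonal library exceed those of every somatodendritic library of its genotype; the sums of Psmd1, Psmd2 and Psmd4 (base non-ATPase) overlap, and they are dominated by the abundant Psmd1 and Psmd2.

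Summed over the 14 constitutive core genes, the level was 1631 to 1996 CPM in +/+ somata, 2744 to 4146 CPM in +/+ axons, 1387 to 1829.7 CPM in Hnrnpr-/- somata and 2829 to 3879 CPM in Hnrnpr-/- axons. The axonal library with the highest sum of each genotype, replicate 3 of both, was also the one with the most endothelial or pericyte marker RNA, at 9885 CPM for 7 markers in +/+ and 8882 CPM in Hnrnpr-/-. In +/+ axonal replicate 2, which had the least of these markers among the axonal libraries, at 1028 CPM, the core sum was 3331 CPM. Its astrocyte or radial glia markers were the highest of all 16 libraries at 5755 CPM. In +/+ axonal replicate 4, the endothelial or pericyte markers summed to 4189 CPM and the core sum was the lowest axonal one, 2744 CPM. Astrocyte or radial glia markers summed to 1452 to 2220.1 CPM in +/+ somata and 2629 to 5755 CPM in +/+ axons, and to 1676 to 2748 and 2423 to 4670.4 CPM in Hnrnpr-/-. Fibroblast or meningeal markers summed to 105 to 614 CPM in +/+ somata and 277 to 3592 CPM in +/+ axons, and to 179 to 1369 and 535 to 2684 CPM in Hnrnpr-/-, and motoneuron markers to 2708 to 3533 CPM in +/+ somata and 229 to 976 CPM in +/+ axons, and to 2243 to 3477 and 117 to 2132 CPM in Hnrnpr-/-. The sums of oligodendroglia or Schwann cell markers overlapped between compartments, at 204 to 851 CPM in somata and 201 to 1257 CPM in axons of +/+ and 284 to 1034 and 253 to 1787 CPM in Hnrnpr-/-, as did those of microglial markers, at 10.2 to 42.2, 14.1 to 113, 10.00 to 116 and 19.8 to 344 CPM in the same order. Of the tested markers, 3 of 6 endothelial or pericyte ones rose and 1 fell in +/+ axons (3 and 2 in Hnrnpr-/-), and 1 of 7 oligodendroglia or Schwann cell ones rose and 1 fell (1 and 0). Without any lower, 4 of 8 astrocyte or radial glia (2 in Hnrnpr-/-), 1 of 7 fibroblast or meningeal (1) and 1 of 7 microglial markers (1) rose, and without any higher, 6 of 9 motoneuron markers (5) fell. Of all genes, 30.1% were called higher and 27.4% lower in +/+ and 27.5% and 26.8% in Hnrnpr-/-, and the counts of 1 of 7 and 2 of 8 lie below these shares. Of 5 nuclear RNAs, 3 rose and 2 fell in +/+ axons and 1 rose and 2 fell in Hnrnpr-/- axons, and their sum was 1037 to 1376 CPM in +/+ somata, 596 to 2634 CPM in +/+ axons with the highest value in replicate 2, 1048 to 1690.0 CPM in Hnrnpr-/- somata and 618 to 944 CPM in Hnrnpr-/- axons. The part of these other cells and RNAs in the proteasome result was not tested.

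Among the activators, which open the core gate without ATPases, the partners of one ring diverged. PA28 is built from Psme1 (PA28alpha, chr14:55815951-55818984) and Psme2 (PA28beta, chr14:55824897-55828558), neighbouring genes. Psme1 was at 69.6, 64, 75.5 and 80.7 CPM in +/+ somata and 71.3, 58.4, 76.9 and 73 CPM in +/+ axons, and at 58.1, 74.4, 65 and 66.5 CPM in somata and 95.2, 62.1, 65 and 64.9 CPM in axons of Hnrnpr-/-. These values overlapped throughout, and the log2 fold changes were -0.0521 ± 0.16 (SE, 95% interval -0.39 to 0.28, edgeR adjusted p = 0.793) and 0.12 ± 0.16 (SE, 95% interval -0.21 to 0.46, edgeR adjusted p = 0.53), neither past the threshold. Psme2, by contrast, was at 29.3, 26.4, 25.8 and 35.6 CPM in somata and 60.6, 54.4, 96.9 and 63.3 CPM in axons of +/+ and at 19.7, 31.1, 26.2 and 30.6 CPM in somata and 56.4, 55.5, 79.3 and 83 CPM in axons of Hnrnpr-/-, with all axonal libraries higher, by 1.23 ± 0.22 (SE, edgeR adjusted p = 0.000354) and 1.35 ± 0.22 (SE, edgeR adjusted p = 0.000243). With equal exon lengths of 977 bases, the Psme2 level was 34.1% to 44.2% of the Psme1 level in +/+ somata and 85% to 126% in +/+ axons. In Hnrnpr-/- it was 33.9% to 46% in somata and 59.3% to 128% in axons, and no axonal ratio fell within the somatodendritic range. These ratios are descriptive and do not depend on the scaling of the libraries.

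Psme2b, an intronless near-copy of Psme2, was at 1.09, 0.72, 1.08 and 1.31 CPM in somata and 3.47, 3.38, 4.22 and 5.02 CPM in axons of +/+ and 0.865, 1.56, 1.09 and 1.2 CPM in somata and 3.81, 2.42, 3.27 and 4.18 CPM in axons of Hnrnpr-/-. It rose by 1.93 ± 0.29 (SE, edgeR adjusted p = 0.000109) and 1.53 ± 0.28 (SE, edgeR adjusted p = 0.000556), but its reads may be shared with Psme2, since reads with several matches were split among them. Psme3 encodes PA28gamma, a nuclear activator. Its libraries held 129, 151, 148 and 171 CPM in somata and 179, 127, 178 and 165 CPM in axons of +/+ and 156, 174, 139.9 and 173 CPM in somata and 143, 188, 215 and 169 CPM in axons of Hnrnpr-/-, which overlapped, with log2 fold changes of 0.12 ± 0.16 (SE, edgeR adjusted p = 0.546) and 0.15 ± 0.16 (SE, edgeR adjusted p = 0.428). Psme4 encodes PA200, a single-chain cap of the core. It was at 36.4, 56.1, 53.3 and 51 CPM in somata and 38.2, 81.8, 55.6 and 34.6 CPM in axons of +/+ and 58.8, 44.6, 53.4 and 52.3 CPM in somata and 42.7, 48, 63.1 and 44.8 CPM in axons of Hnrnpr-/-, also overlapping, with log2 fold changes of 0.10 ± 0.24 (SE, edgeR adjusted p = 0.754) and -0.0747 ± 0.24 (SE, edgeR adjusted p = 0.811); the +/+ value turned to -0.21 (edgeR adjusted p = 0.402) without axonal replicate 2. Psmf1 (PI31), which inhibits the core in vitro and is also known as an adaptor for proteasome transport in axons, was at 73.7, 75.2, 72.3 and 85.3 CPM in somata and 66.2, 62.3, 63.8 and 77.3 CPM in axons of +/+ and 71.5, 69.9, 71.2 and 91.1 CPM in somata and 75.2, 70.2, 70.8 and 64.7 CPM in axons of Hnrnpr-/-. The libraries overlapped in both genotypes, and the log2 fold changes of -0.19 ± 0.13 (SE, 95% interval -0.45 to 0.0845, edgeR adjusted p = 0.223) and -0.11 ± 0.13 (SE, 95% interval -0.38 to 0.16, edgeR adjusted p = 0.473) did not pass.

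Assembly chaperones help the core and the base form and then leave. Of 7, 5 rose in +/+ axons and 7 in Hnrnpr-/- axons. Psmg4, a core chaperone, had the largest log2 fold change of them in both genotypes, at 1.31 ± 0.29 (SE, edgeR adjusted p = 0.0015) and 1.44 ± 0.29 (SE, edgeR adjusted p = 0.000905). It was at 3.68, 3.51, 3.15 and 5.26 CPM in somata and 10.3, 11.6, 9.78 and 6.82 CPM in axons of +/+ and 2.18, 4.68, 3.31 and 3.69 CPM in somata and 7.41, 7.89, 8.64 and 13.8 CPM in axons of Hnrnpr-/-, without overlap. Psmd9, a base chaperone, had the smallest in +/+. It was at 46.6, 49, 47.9 and 50.04 CPM in somata and 61.9, 54.9, 70.3 and 49 CPM in axons of +/+ and 41.3, 62.1, 48 and 49.1 CPM in somata and 64.6, 60.4, 72.2 and 66.6 CPM in axons of Hnrnpr-/-. Both pairs of groups overlapped, and the log2 fold changes were 0.29 ± 0.15 (SE, edgeR adjusted p = 0.104) and 0.40 ± 0.15 (SE, edgeR adjusted p = 0.0312), the latter 0.41 (edgeR adjusted p = 0.0618) and not past the threshold with the replicate number as a block. The Hnrnpr-/- call of Psmd9 was also lost with limma voom and without the count filter. Its +/+ value passed with library totals, at 0.44 (edgeR adjusted p = 0.0241). For Psmd5, another base chaperone, the Hnrnpr-/- call was lost without axonal replicate 3, at 0.42 (edgeR adjusted p = 0.0522). Psmc3ip, a meiotic recombination factor, rose by 1.12 ± 0.21 (SE, edgeR adjusted p = 0.000545) and 1.22 ± 0.21 (SE, edgeR adjusted p = 0.000376). It was at 13.2, 14.1, 15.5 and 14.3 CPM in somata and 29.8, 34.4, 37.2 and 22.9 CPM in axons of +/+. In Hnrnpr-/- it was at 13.3, 16.9, 15.1 and 17.4 CPM in somata and 21.9, 38.1, 45 and 41.2 CPM in axons. By GENCODE, 1109 bases of its exons overlap Mlx on the opposite strand. Psme3ip1, a partner protein of PA28gamma, did not pass edgeR's test, at 59.5, 56.1, 56.5 and 59.7 CPM in somata and 79.3, 45.5, 80.3 and 75.9 CPM in axons of +/+ and 54.7, 65.6, 59.4 and 59.6 CPM in somata and 74.5, 84.4, 78.5 and 67 CPM in axons of Hnrnpr-/-, with log2 fold changes of 0.28 ± 0.16 (SE, edgeR adjusted p = 0.154) and 0.35 ± 0.16 (SE, edgeR adjusted p = 0.0812). Its Hnrnpr-/- groups did not overlap, whereas in +/+ axonal replicate 2 lay below every somatodendritic library. Without that library Psme3ip1 passed in both genotypes, at 0.43 (edgeR adjusted p = 0.00627) in +/+ and 0.34 (edgeR adjusted p = 0.0149) in Hnrnpr-/-, and it did so with library totals and limma voom too.

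Per exon length, the order of the 31 core, base and lid subunits differed between compartments. In +/+ somata the scaffold Psmd2 led, at 188 ± 7.59 CPM per kb (SD, n = 4), followed by the ATPases Psmc1 (156 ± 20.4) and Psmc5 (154 ± 13.4) and by Psmb6 (152 ± 8.7), which lay within 1 SD of each other. In +/+ axons Psmb6 led, at 314 ± 86.3 CPM per kb, and Psmd2 stood at 175 ± 39.3. Within the SD of Psmb6 lay the core subunits Psmb2 (289.8 ± 62.3), Psma2 (271 ± 56), Psma6 (264 ± 59.6), Psmb3 (246) and Psmb5 (245). The ATPases Psmc5 (243) and Psmc1 (232) and the lid subunit Psmd8 (237) lay within it too. These leading genes were likewise named after their values were seen. The same genes led in Hnrnpr-/- somata and axons, where Psmd2 was at 189 ± 8.07 and Psmb6 at 329 ± 54.3 CPM per kb. Psmc6 had the lowest or second lowest level of the 31 in all groups, at 50.02 ± 7 in +/+ somata and 66 ± 11.8 in +/+ axons. Within libraries, the per-length ratio of Psmd2 to Psmb5 ranged from 1.34 to 1.62 in +/+ somata and from 0.492 to 0.967 in +/+ axons. In Hnrnpr-/- it ranged from 1.53 to 2.04 in somata and from 0.68 to 1.03 in axons, so the compartments did not overlap in either genotype.

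The proteasome genes without an axonal rise were mostly long. Across the 49 genes, the Spearman correlation between combined exon length and the log2 fold change was -0.60 in +/+ and -0.69 in Hnrnpr-/-. Genes share libraries and depth and are not replicates, so these values are descriptions. The relation was not particular to the proteasome: over 15378 protein-coding genes it was -0.38 and -0.41. Of the 36 members under 2000 bases, a limit set after the values were seen, 34 rose in +/+ axons (94.4%), against 59.3% of all protein-coding genes of that size. In Hnrnpr-/- axons 34 rose too, against 59.1%. The median log2 fold change of these short members was 0.79 in +/+ and 0.96 in Hnrnpr-/-, and that of all short protein-coding genes 0.90 and 0.94. Of the 13 longer members 5 rose in +/+ (38.5%), against 23% of the longer protein-coding genes, and 6 rose in Hnrnpr-/- (46.2% against 20.8%). Their medians in +/+ were 0.29 and -0.20. Psme1, at 977 bases, and the rare Psmb9 were the short genes that did not pass, and Psma3, whose 3325 bases join the exons of all its annotated transcripts, the long one with the clearest rise among the subunits. The part of transcript length in the compartment difference was not tested.

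**Figure D4:**
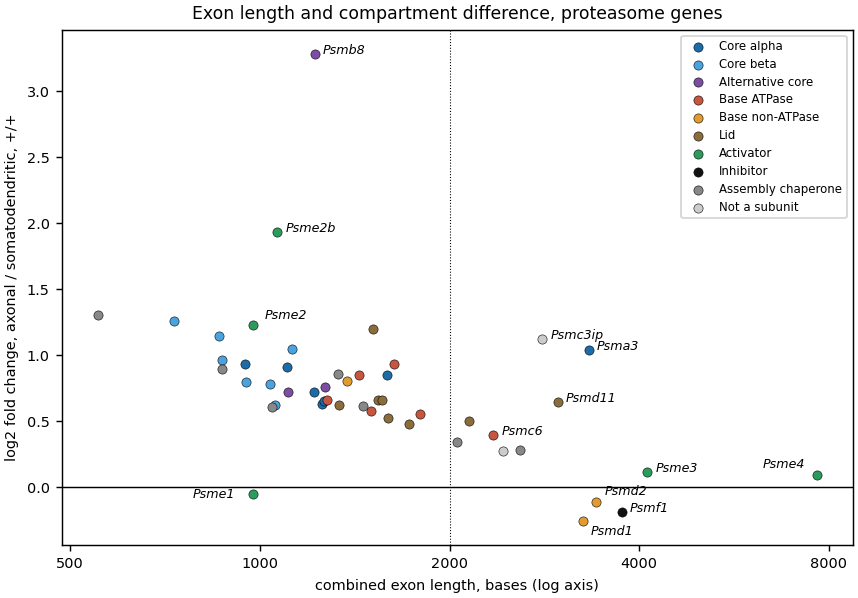
Combined exon length (x axis, log scale, bases) against log2 fold change of axonal over somatodendritic libraries in +/+ motoneurons (y axis) for the 49 tested genes, coloured by role; the dotted line marks 2000 bases. Of the 36 genes left of the line 34 rose, and Psmd1, Psmd2, Psmf1, Psme3 and Psme4 lie near 0 at the right.

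The promoters of the members were also searched for motifs. RefSeq (GRCm38.p6) gave promoters of 300 bases, 250 before and 50 after the start, for 43 of the 51 genes, in 47 entries. Of 5 motifs searched on both strands, the core of ETS factor sites, CCGGAAG, was in 36.2% of the member promoters and 8.86% of all 32851 promoters. The CCAAT box, CCAAT, was in 34.0% and 37.4%. The antioxidant response element core, TGACNNNGC, which Nrf1 and Nrf2 bind, was in 12.8% and 12.4%. The YY1 core, GCCATNTTG, was in 2.13% and 2.51%, and the cyclic AMP response element, TGACGTCA, in 0% and 1.79%. The matches are descriptions of letters, not sites shown to be bound. The background was all promoters and not those of genes at a like level. The part of these motifs in the compartment difference was not tested. The ETS core was found both near the start of genes that rose in axons and of genes that did not, so windows of both kinds are shown, with GRCm38.p6 positions, the motif in capitals, 10 bases on each side, read 5′ to 3′ along the gene, and with the antioxidant response element windows of the catalytic genes Psmb5 and Psmb6 after them; Psmb7 was among the 8 genes not matched.
Psmd13 (rose, chr7:140882378-140882404): gcccgcggtgCCGGAAGtgagcgagca
Psma6 (rose, chr12:55398813-55398839): cgccggtgctCCGGAAGcagtagccat
Psmd11 (rose, chr11:80428594-80428620): gagggcgggtCTTCCGGgtgtgtgttt
Psmd2 (not called, chr16:20651616-20651642): ccgcagggcgCTTCCGGtctggaggac
Psme4 (not called, chr11:30771712-30771738): tggccccgccCCGGAAGtgacttgagg
Psmb5 (antioxidant response element core, chr14:54618024-54618052): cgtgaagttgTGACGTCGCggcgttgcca
Psmb6 (antioxidant response element core, chr11:70525338-70525366): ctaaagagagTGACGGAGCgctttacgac
Psmb5 lies on the minus strand and the other 6 on the plus strand. In Psmd11 and Psmd2 the motif reads on the opposite strand, as CTTCCGG.

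Genes that work with the proteasome but carry other names moved in both directions. Of 52 listed, 50 were tested; 10 rose and 14 fell in +/+ axons, and 8 rose and 15 fell in Hnrnpr-/- axons. Of all genes tested, 30.1% were called higher and 27.4% lower in +/+ and 27.5% and 26.8% in Hnrnpr-/-, so the share that fell was near that of all genes. The median log2 fold changes of the 50 were -0.044 and -0.18. Of 7 tested subunit and assembly genes among them, 4 rose and 1 fell in +/+ and 3 rose in Hnrnpr-/-. The 19S subunits Sem1 (1.84 and 2.18) and Adrm1 (0.79 and 0.93) and the maturation factor Pomp (1.06 and 1.17) rose in both genotypes, while the importin Ipo9 fell in +/+ (-0.88 and -0.46) and the deubiquitinase Usp14 did not pass (-0.0619 and -0.35). Of 14 factors that bind the proteasome, 7 fell and 2 rose in +/+ and 9 fell and 1 rose in Hnrnpr-/-. Among those that fell were Ecpas (-1.68 and -1.53), which tethers core and 19S particle, and the ubiquitin ligase Ube3c (-1.49 and -1.07). Of the deubiquitinases, Usp9x (-1.82 and -1.70) fell most. Exon length was not compared for these listed genes, and over all protein-coding genes longer ones had lower log2 fold changes. The part of length in these falls was not tested. Of 7 tested regulators of proteasome gene transcription, 1 rose and 1 fell in each genotype and 5 did not pass. Nfe2l2 (Nrf2) rose (3.08 and 2.42) and Nfe2l1 (Nrf1) fell (-0.78 and -0.71). Each pair in parentheses gives log2 fold changes of axonal over somatodendritic libraries in +/+ and Hnrnpr-/-.

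No effect of the loss of hnRNP R on proteasome transcripts was detected in either compartment. In somatodendritic libraries 0 of the 49 genes passed the test, where 1 of all genes did (0.00501%), and 0 had an unadjusted p under 0.05, against 0.601% of all genes. In axonal libraries 0 passed, where 0.0100% of all genes did, and 0 had an unadjusted p under 0.05, against 3.88%. For the difference of the genotype effect between compartments the counts were 0, against 0% of all genes, and 0 at an unadjusted p under 0.05, against 1.33%. DESeq2 and limma voom also called 0 members in these comparisons, and 0 had an unadjusted p under 0.05 by either. The smallest unadjusted p of any member was 0.248 in somata (Psma5), 0.175 in axons (Psma3) and 0.232 for the difference (Psmc6), all by edgeR.

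The intervals give the range of changes that the fit allowed. The fit shares 1 spread over both compartments while axonal libraries spread more. The axonal intervals may therefore be too narrow and the somatodendritic ones too wide. In somata, only 0.601% of all genes had an unadjusted edgeR p under 0.05, so that test may miss changes. The 95% interval of the log2 fold change of Hnrnpr-/- over +/+ lay within 1 on either side of 0 for 47 of 49 genes in somata and 47 of 49 in axons; the wide ones were those of the rare Psmb8 and Psmb9. For Psmb5 the log2 fold change was -0.18 in somata (95% interval -0.52 to 0.17) and 0.00672 in axons (-0.34 to 0.35). For the lid deubiquitinase Psmd14 it was -0.0261 (-0.40 to 0.35) and -0.12 (-0.49 to 0.26), and for Psme2 -0.12 (-0.58 to 0.34) and -0.00523 (-0.46 to 0.45). Psmb8 was at 0.59 (-0.80 to 1.99) and 0.0868 (-1.21 to 1.38), intervals that reach beyond a 2-fold change. By role, the median in somata was -0.10 for core alpha, -0.18 for core beta, -0.0745 for the ATPases, -0.0376 for the lid and 0.0878 for the activators. In axons the same medians were 0.0332, 0.0144, 0.0713, 0.0416 and -0.00523. All 14 constitutive core genes had a negative estimate in somata and 11 of 14 a positive one in axons, with each interval covering 0. These genes share the same libraries and are not replicates, so their signs are not separate observations. Their summed level was lowest in Hnrnpr-/- somatodendritic replicate 1, at 1387 CPM. The median of all genes tested was 0.00169 in somata and 0.0194 in axons.

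**Figure D5:**
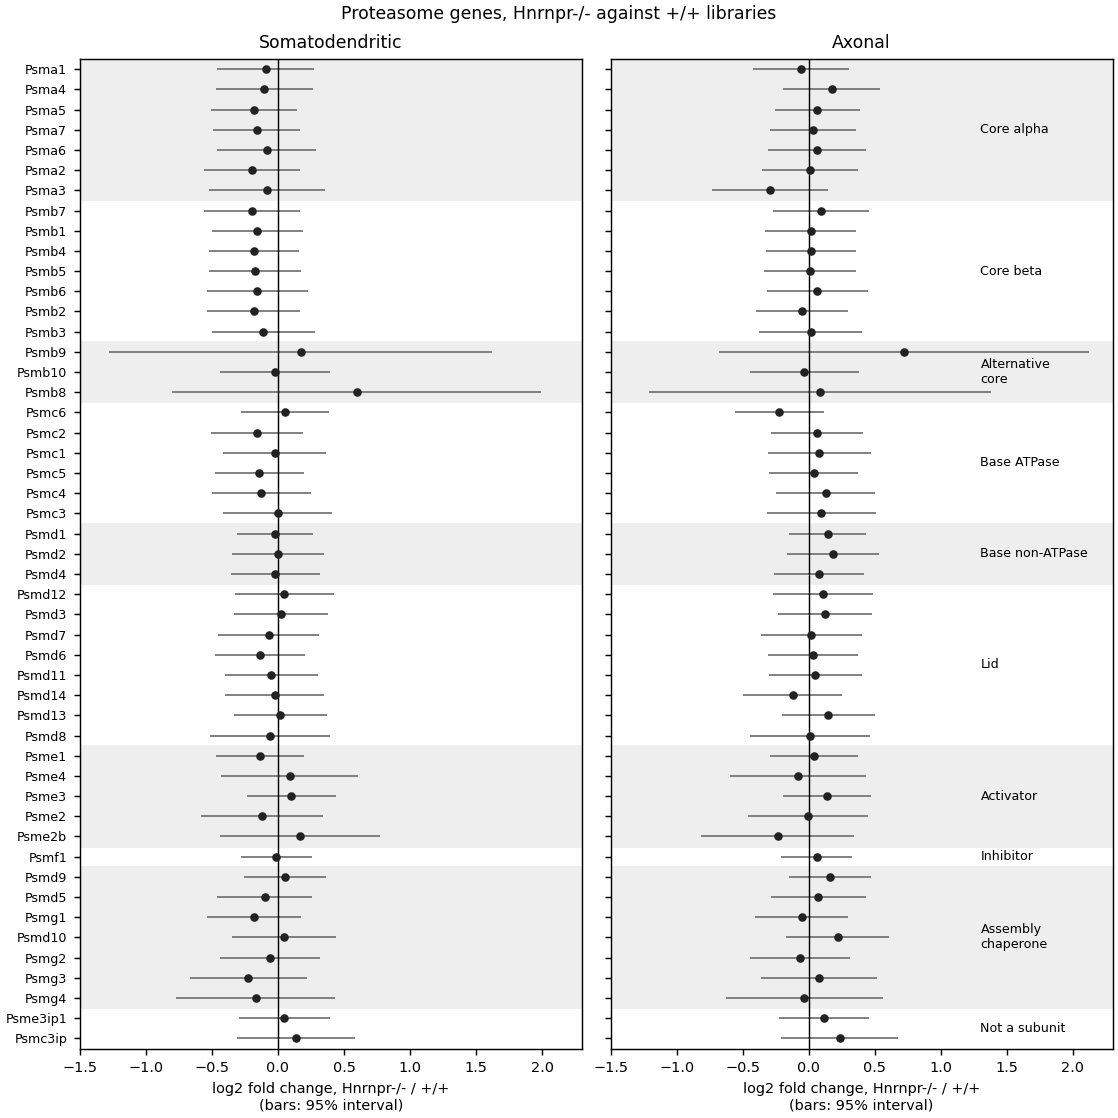
Log2 fold change of Hnrnpr-/- over +/+ libraries (x axes) for the 49 tested genes (y axis, grouped by role) in the somatodendritic (left) and axonal compartment (right), with 95% intervals. Every interval crosses 0; those of Psmb8 and Psmb9 are the widest.

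Some values rest on reads that the counting could not assign without doubt. The cDNA kit does not mark strand, although reads were counted with a reverse-stranded setting per the study's methods, so reads in exons shared with a gene on the opposite strand cannot be told apart. Psmb9 exons share 743 bases with Tap1, a gene with 10541 counts over all libraries against 608 for Psmb9. Psmb7 shares 2817 bases with Nek6, Psme1 2192 with Emc9, Psme2 731 with Rnf31 and Psmb8 498 with a lncRNA gene, all by GENCODE exons. These are the exons of all GENCODE transcripts, while reads were counted over RefSeq exons. For Psmb7 the GENCODE exons span 6025 bases against 1057 counted, and for Psme1 5539 against 977. How much of each overlap lies in counted exons was not determined. Reads matching several places or several genes were split into fractions. Of 16 counts per gene, 0 were within 0.01 of a whole number for Psma3, 1 each for Psma2, Psma5 and Psmb3, and 2 each for Psma4 and Psmb5, so split reads entered these values in nearly every library. By GENCODE exons, Psmb5 shares 109 bases with the microRNA gene Mir686 on the same strand. Mir686 had 9204 counts over all libraries against 75900 for Psmb5. Whether the split reads matched other copies or overlapping genes was not tested.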

How the data were processed

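The libraries were made from polyA RNA with the SMART-Seq v4 and Nextera XT kits, which do not mark strand, and sequenced as single reads. The authors aligned reads with STAR 2.7.2b to the mouse genome (GRCm39, RefSeq annotation) and counted them over exons with featureCounts 1.6.4 in its reverse-stranded setting, splitting reads with several matches or genes into fractions, so the authors deposited estimated counts per gene (expected counts that need not be whole), and the deposited exon length per gene was used for levels per kb. Counts were rounded to whole numbers. CPM here are scaled by TMM factors. edgeR 4.0.16 (R 4.3.3) tested 5 contrasts in 1 fit of all 16 libraries with a mean per group (filterByExpr, TMM, glmQLFit and glmQLFTest, Benjamini-Hochberg over 19964 genes, threshold 0.05). SE is the absolute log2 fold change over the square root of F, and intervals are at 95%. The value of 3 counts, the floor of detection, was 0.0811 to 0.141 CPM and covers counting error only.

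The libraries of a group are described as biological replicates by the study. Replicate numbers come from the sample titles; deviations of same-numbered libraries correlated by 0.105 to 0.241 between +/+ compartments and 0.175 to 0.508 between Hnrnpr-/- compartments, all above 0.1, so compartment results were also fitted with the number as a block. Alternatives were DESeq2 1.42.0, limma 3.58.1 voom with quality weights, other scalings and filters, and leaving out each library. Scripts were tested on simulated data with known changes; there, edgeR called unchanged genes above its nominal rate in the axonal genotype contrast, where libraries spread more, and limma voom with quality weights did so less. The proteasome genes, their roles and all lists were chosen with earlier results of these data known. Values in every library are given for the catalytic subunits and their replacements, the extremes of each role group in +/+, the activators and the inhibitor. Promoters came from RefSeq on GRCm38.p6, another build than that of the counts. Paaf1 was not analysed here, and the values of some listed genes are not reported here. A permutation test planned for members with an unadjusted p under 0.05 between genotypes had no member to apply to.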

Additional observations from a re-analysis of the deposited data

Results flagged for a closer look

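Of 196 groups of 4 libraries checked, those of all 49 tested genes, 17 held a library whose gap to the nearest other took a share of the group's range above Dixon's 95% critical value; chance alone gives about 1 in 20. Axonal replicate 3 held most of them, 6 in +/+ and 6 in Hnrnpr-/-, and was the highest of its group in each. In +/+ these were Psmb3 at 245 CPM, Psmb4 at 215 CPM, Psmc1 at 461 CPM, Psmc5 at 391 CPM, Psmd7 at 314 CPM and Psmd12 at 231 CPM. In Hnrnpr-/- they were Psmc2 at 354 CPM, Psmd4 at 312 CPM, Psmd5 at 229 CPM, Psmd11 at 344 CPM, Psmd14 at 259 CPM and Psmg3 at 32.7 CPM. In +/+ axonal replicate 2, Psmd2 was lowest at 397 CPM and Psme3ip1 at 45.5 CPM. In Hnrnpr-/- axons Psme1 stood out in replicate 1 at 95.2 CPM and Psmb9 in replicate 4 at 4.34 CPM, and in Hnrnpr-/- somata Psmf1 in replicate 4 at 91.1 CPM. Without Hnrnpr-/- axonal replicate 1, the log2 fold change of Psme1 was -0.0513 in Hnrnpr-/-. No difference of the genotype effect between compartments passed the test for any member.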

How the results depend on the processing

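The counts of called proteasome genes stayed within 1.5 times the reported ones under all 27 alternatives (26 for the difference between compartments), and none of them called a member lower in axons. Over the alternatives that keep all libraries, 38 to 42 rose in +/+ and 39 to 41 in Hnrnpr-/-. With single libraries omitted the counts were 37 to 40 in +/+, 38 to 41 in Hnrnpr-/- and 0 to 0 in each genotype comparison. Of the 39 +/+ calls, 36 held in every alternative, and of the 40 Hnrnpr-/- calls 37. In +/+, Psmc6 was lost without +/+ somatodendritic replicate 1 or 2, +/+ axonal replicate 2 or Hnrnpr-/- somatodendritic replicate 3 or 4 (edgeR adjusted p = 0.0527 to 0.135), Psmd12 without +/+ somatodendritic replicate 1 or 4 or axonal replicate 3 (0.051 to 0.0693) and Psmd7 without +/+ axonal replicate 3 (0.0515). In Hnrnpr-/-, Psmd9 was lost without somatodendritic replicate 1, 3 or 4 or axonal replicate 3 or 4 (0.052 to 0.0793), Psmd12 without somatodendritic replicate 4 (0.0575) and Psmd5 without axonal replicate 3 (0.0522). Of alternatives that keep all libraries, limma voom lost Psmc6 in +/+ (limma adjusted p = 0.12), Psmd12 in both genotypes (0.058 and 0.0726) and Psmd9 in Hnrnpr-/- (0.0574). Without the count filter Psmc6 and Psmd9 were lost (edgeR adjusted p = 0.0631 and 0.0524), and with only the groups compared Psmc6 (0.0655). Calls were gained in +/+ for Psmd5 and Psmd9 with library totals, the stricter count filter and protein-coding genes only, for Psmd5 also with limma voom and without +/+ axonal replicate 2 or Hnrnpr-/- axonal replicate 3, and for Psmd9 without +/+ axonal replicate 4. Psme3ip1 gained a call in +/+ with library totals, limma voom and without +/+ axonal replicate 2, and in Hnrnpr-/- with these, the stricter filter, only the groups compared and protein-coding genes only. With the replicate block, 38 rose in +/+ and 40 in Hnrnpr-/-, 0 members passed in each genotype comparison, and apart from Psmc6, Psmd9 and Psmb9 it changed no call. Between genotypes same-numbered libraries correlated by -0.0458 to 0.359 in somata and 0.00946 to 0.677 in axons, and 3 of 8 somatodendritic and 4 of 8 axonal libraries correlated best with their own number. These values do not settle whether the numbers pair the genotypes. The study states that compared conditions came from one batch of cells, without tying a batch to a number. Among the 49 tested genes, the compartment values that changed sign belonged to Psmd1, Psmd2, Psme1, Psme4 and Psmf1, none of which had passed the test in either genotype. With library totals in place of TMM, which moved the median of all genes in +/+ from 0.0719 to 0.22 and in Hnrnpr-/- from -0.00282 to 0.12 on the log2 scale, Psme1 and Psmd2 in +/+ were 0.10 and 0.0416, and Psmd1, Psme4 and Psmf1 in Hnrnpr-/- were 0.0299, 0.0445 and 0.00089. With limma voom, Psme1 was 0.00997 in +/+ and -0.00919 in Hnrnpr-/-, and Psme4 -0.22 in +/+. The stricter count filter gave 0.0102 for Psme1 in +/+, and protein-coding genes alone 0.0392 for it and 0.000371 for Psme4 in Hnrnpr-/-. With 1 library left out, Psme1 ranged from -0.0722 to 0.0471 in +/+ and -0.0513 to 0.22 in Hnrnpr-/-, Psme4 from -0.21 to 0.29 and -0.17 to 0.0326, and Psmd2 in +/+ from -0.19 to 0.0401. The cause of these changes was not tested. Without the filter, Psmb11 had an unadjusted edgeR p under 0.05 between genotypes in axons, with at most 3 counts in any library. For the difference of the genotype effect between compartments, the alternatives likewise gave at most 1 member with an unadjusted p under 0.05. Depth limits Psmb8, Psmb9, Psmb11 and Psma8.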
